A study of Rattus norvegicus with 24 samples.

Results

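The dentate gyrus of aged rats that still learned well was compared with that of young rats. The comparison took the 6 arrays titled as aged unimpaired and the 8 arrays titled as young, 14 of the 21 arrays with deposited values, and covered every probe set that was measurable. All animals were male Long-Evans rats without treatment, and each array holds RNA of microdissected dentate gyrus and is labelled as a separate biological replicate. Young rats (Young replicates 1 to 7 and 9) were 6 months old. Aged unimpaired rats (replicates 1, 3, 4, 6, 7 and 8) were 24 to 26 months old and had performed like young rats in the Morris water maze, a pool in which a rat must find a submerged platform. The 7 aged impaired rats, of the same age but with worse scores, stayed in the statistical model so that all groups shared 1 estimate of the spread. Learning index scores of single rats were not analysed here, so the unimpaired group is a class set by a threshold on behaviour.

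Granule neurons of the dentate gyrus receive the main cortical input to the hippocampus and send mossy fibres to field CA3. New granule neurons are added in adult life from progenitors beneath the granule cell layer, and their number declines steeply with age in rodents. Ageing of this tissue is also known for activated microglia, complement and changes in white matter and vessels. Because each array holds RNA of the whole dissected tissue, fewer cells of a type and less RNA per cell cannot be told apart in any value below.

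The dissected tissue carried the granule neuron programme: 16 of 17 listed granule neuron genes were measurable, among them Prox1, the transcription factor that specifies granule cells (log2 level 10.85 ± 0.17 SD in 8 young and 10.79 ± 0.14 in 6 unimpaired rats). Markers of neighbouring CA fields were also present, with 14 of 16 measurable and an array mean of 7.63 to 8.22 in young and 7.52 to 8.10 in unimpaired rats. Of 18 meningeal markers 7 were measurable, and 1 each of the choroid plexus, ependymal and blood lists. Ttr, the transthyretin gene of the choroid plexus, ran from 4.17 to 10.78 on young and from 4.11 to 9.43 on unimpaired arrays, so it varied widely among the rats of both groups. Arrays of a group correlated at r = 0.988 to 0.994 across tested probe sets, and the 3' minus 5' signal of the Gapdh and beta-actin controls averaged 1.43 ± 0.05 in young and 1.40 ± 0.04 in unimpaired rats.

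The overall level of expressed probe sets was slightly lower on the unimpaired arrays. A probe set was tested when its log2 level was above 4 on at least 6 of the 21 arrays. The median over the 15177 tested probe sets was 7.70, 7.72, 7.77, 7.77, 7.78 and 7.79 on the 6 unimpaired arrays. On the 8 young arrays it was between 7.76 and 7.88. All 6 unimpaired arrays lay below the young mean of 7.81, although the ranges overlapped. The group means differed by -0.0548 on the log2 scale (two-sided exact permutation test, p = 0.0370). This p did not pass after adjustment over the 8 array measures tested (adjusted p = 0.0799), and the mean and both quartiles had the same adjusted value. Impaired arrays, with a mean of 7.82 ± 0.02, lay above unimpaired arrays by 0.0606 (exact permutation p = 0.00233, adjusted p = 0.00932), in a test added after the values were seen.

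Features near background and the hybridization controls differed by less than their spread between arrays. The median of all non-control probe sets, most of them near background, differed by -0.00255 (exact permutation p = 0.849). Hybridization controls, which do not come from the rat, averaged 11.14 ± 0.21 in young and 11.17 ± 0.20 in unimpaired rats, and the share of probe sets above a log2 level of 4 was 48.6% in both (adjusted exact permutation p = 0.799 for each). The spread of the hybridization controls was larger than the difference in array medians, -0.0548, so these controls could not show a shift of that size. The poly-A control probe sets averaged 2.78 in young and 2.77 in unimpaired rats, below the filter level, so they could not show such a shift. When tested probe sets were divided by mean level into 5 bins of equal size, the median difference was -0.01 in the lowest bin, -0.03 in the second, and -0.05 in each of the upper 3. The share of negative differences went from 54.1% in the lowest bin to 76.7% in the highest. Single unimpaired arrays deviated from the young mean by a median of -0.07 to -0.01, and single young arrays by -0.04 to 0.05. Unimpaired replicates 4 and 8 had the lowest array medians of the 14, and Young replicates 6 and 9 the highest.

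**Figure D1:**
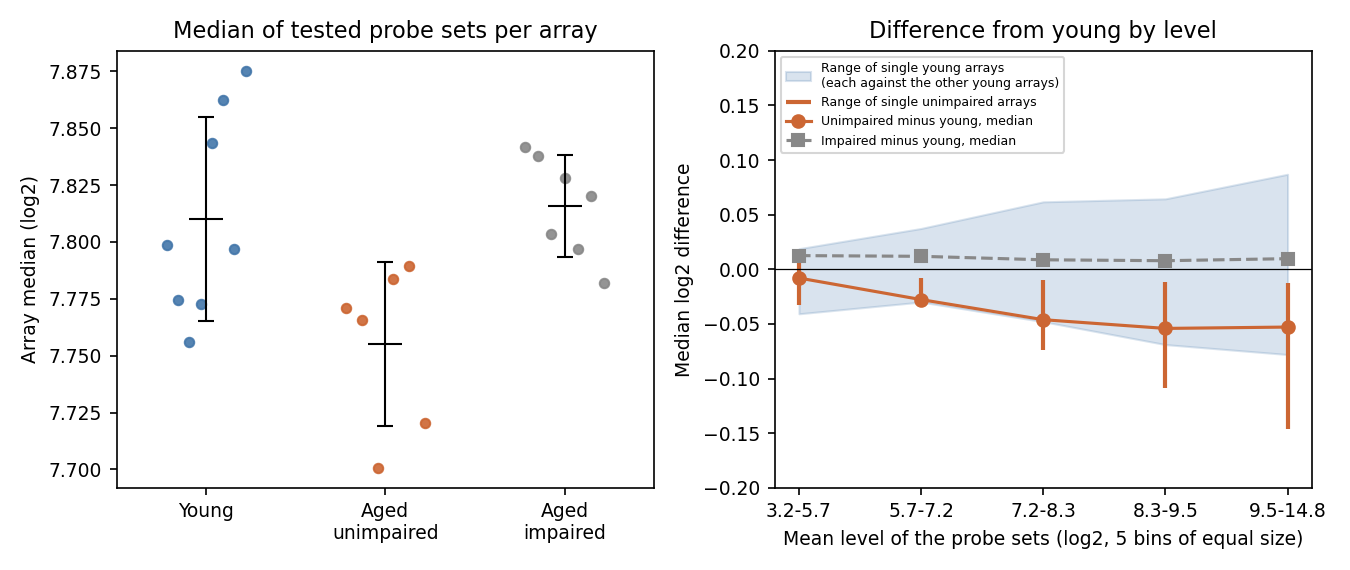
Left, median log2 level of tested probe sets on each array (points) with the group mean and SD (bars); right, median log2 difference from young in 5 bins of mean level, with the range of single arrays. The 6 unimpaired arrays sit between 7.70 and 7.79, below the young mean of 7.81, and the difference from young is nearest 0 in the lowest bin.

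Between unimpaired and young rats, 172 of 15177 probe sets passed at an adjusted p under 0.05 in limma's moderated test, which is 1.13% of those tested. Of these, 30 were higher (0.198% of those tested) and 142 lower (0.936%) in unimpaired rats. Lower calls therefore made up 82.6% of all calls on the deposited scale. After each array was centred on its own median the split was 62 higher and 53 lower, and after quantile normalization 64 higher and 61 lower, so the excess of lower calls depended on the scaling. Leaving out 1 array gave 59 to 219 calls, and in 7 of 14 such fits the count moved by over 1.5 times; with the replicate number as a block, which was not found to pair the arrays, 9 were called. At an unadjusted p under 0.05 there were 483 higher and 2094 lower probe sets. The called differences were small: 6 probe sets changed at least 2-fold as measured, and the median size was 0.41 for higher and 0.33 for lower calls. In 82 of the 172 the young and unimpaired arrays did not overlap, against 144 (0.949%) of all tested probe sets.

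The called probe sets with a single gene symbol named 124 genes, 20 higher and 104 lower, and 38 probe sets had no single symbol. With 1 probe set per gene, the one with the highest mean, 18 of 8737 genes were higher (0.206%) and 95 lower (1.09%); 67.2% of all genes had a negative difference and the median was -0.04. These gene-level shares are the background for the gene groups below. Of the 124 genes, 42 had further tested probe sets. These numbered 65, of which 53 had the sign of the call and 10 were called as well.

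**Figure D2:**
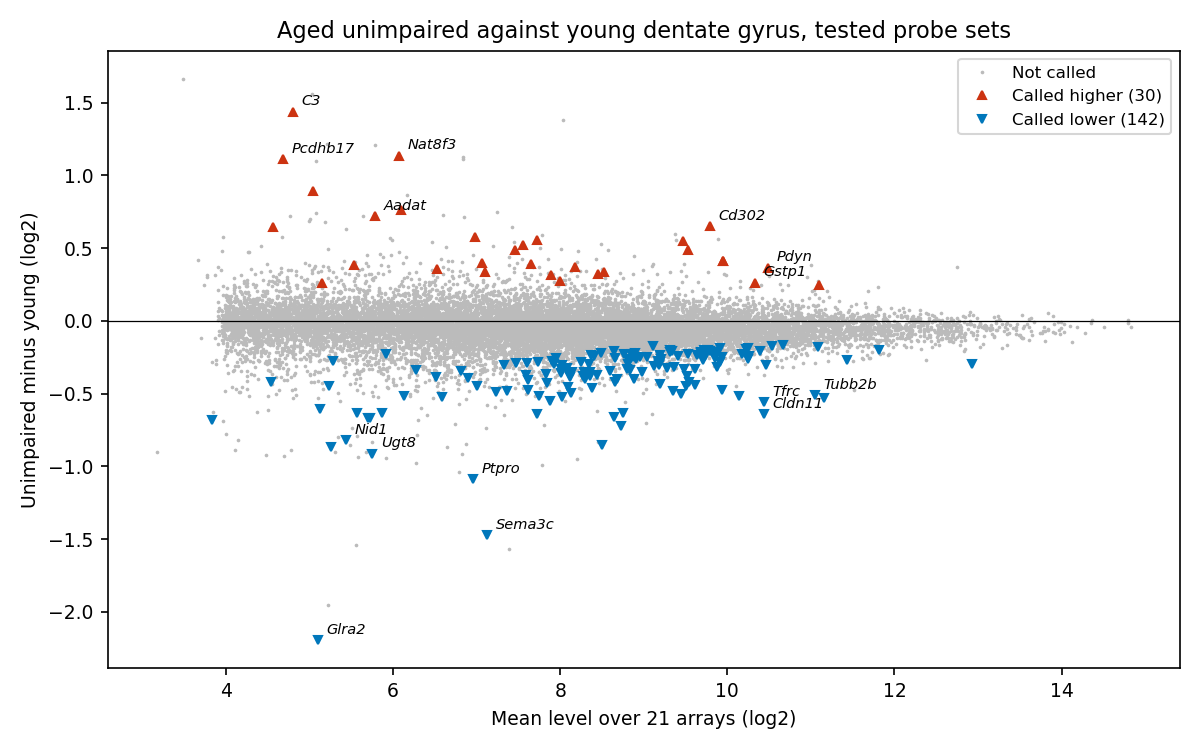
Log2 difference of unimpaired minus young against mean log2 level for each tested probe set. Of the coloured points, 30 are called higher and 142 lower by limma; 31, 51 and 37 of the lower calls lie in the upper 3 of 5 bins of level, above 7.21.

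Glra2, an alpha subunit of the glycine receptor chloride channel, had log2 levels of 5.10 to 7.26 (median 6.39) on young arrays and 3.19 to 5.01 (median 3.96) on unimpaired arrays. The highest unimpaired array thus lay below the lowest young array. Glra2 fell by 2.19 ± 0.29 (SE) as measured (limma adjusted p = 0.000691). Since 3 of 6 unimpaired arrays lay below the filter level of 4, the fold is given as a bound: with values below 4 set to 4, Glra2 was at least 3.90-fold lower. Among 9 other measured glycine and GABA-A receptor genes none passed: Glrb, the beta subunit that joins Glra2, differed by -0.12 (limma adjusted p = 0.338) and Gphn, which encodes the gephyrin scaffold, by -0.17 (adjusted p = 0.158). With 1.09% of all genes called lower, 9 genes without a call do not set Glra2 apart. Of the 10 genes of the list 9 were negative, and 8 after median centring. The list median was -0.14 as deposited, against -0.04 for all genes.

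Sema3c, a secreted semaphorin that steers growing axons, spanned 7.56 to 8.60 (median 8.25) in young rats and 6.16 to 6.92 (median 6.78) in unimpaired rats. The groups did not overlap, and replicate 6 was the lowest unimpaired array. Sema3c fell by 1.47 ± 0.19, to a level 2.77 times lower (limma adjusted p = 0.000607). It was the 1 called member of 38 measured axon guidance genes (2.63%, against 1.09% of all genes called lower), of which 30 had a negative difference. Others of the family without a call were Plxna4, a plexin co-receptor, at -0.22 (adjusted p = 0.161) and the netrin relative Ntng1 at 0.39 (adjusted p = 0.153).

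Ptpro, a receptor tyrosine phosphatase of axons, spanned 6.99 to 8.17 (median 7.56) in young and 5.35 to 6.94 (median 6.74) in unimpaired rats. It fell by 1.09 ± 0.23 (limma adjusted p = 0.0261) with no overlap, and unimpaired replicate 8 was the lowest array. Fstl5, a secreted follistatin-like protein, spanned 7.50 to 8.50 in young and 7.25 to 7.67 in unimpaired rats and fell by 0.64 ± 0.14 (adjusted p = 0.0324). Its groups overlapped at the edge, and the call was lost after median centring, where the difference was -0.58 (adjusted p = 0.0549). Fstl5 was called in 7 of the 14 fits that left out 1 array. Qpct, glutaminyl cyclase, was above the filter level of 4 on 7 of 8 young arrays and on 0 of 6 unimpaired and 0 of 7 impaired arrays, so it was tested only through the group where it is high. Its levels were 3.86 to 4.53 in young and 2.97 to 3.90 in unimpaired rats, and with values below 4 set to 4 the difference was -0.16.

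Several markers of progenitors and immature neurons were lower in unimpaired rats. Of 19 measured, out of 30 on the array, 18 had a negative difference and 5 were called lower (26.3%, against 1.09% of all genes), with a list median of -0.27 against -0.04. After median centring 18 of 19 were still negative, the median was -0.21 and 4 were called. With centring, 43.5% of all genes were negative and 53 of 15177 probe sets were called lower. The array mean of the list was 9.82 to 10.09 in young and 9.60 to 9.67 in unimpaired rats, which did not overlap. The array means of the oligodendrocyte precursor, endothelial, basement membrane, glycine and GABA-A receptor, axon guidance, growth factor and chaperone lists did not overlap either. The lack of overlap was thus not particular to this list.

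Tubb2b, a beta-tubulin of growing neurites, spanned 11.13 to 11.55 (median 11.40) in young and 10.78 to 10.93 (median 10.87) in unimpaired rats. The 6 unimpaired arrays lay close together and all below the young arrays, a fall of 0.51 ± 0.07 (limma adjusted p = 0.00137). Marcksl1, an actin-binding protein of developing neurons, fell by 0.52 ± 0.08 (adjusted p = 0.00622), from 10.23 to 10.68 in young down to 9.65 to 10.05 in unimpaired rats. Ptn, the growth factor pleiotrophin, fell by 0.53 ± 0.09 (adjusted p = 0.0121), from 11.12 to 11.67 down to 10.60 to 11.07. Pleiotrophin is also made by glia, so its transcript does not mark a single cell type.

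Nrep, the neuronal regeneration-related protein, had levels of 9.97 to 10.43 in young and 9.51 to 9.85 in unimpaired rats and fell by 0.47 ± 0.08 (limma adjusted p = 0.0121). Sox4, a transcription factor of neuronal differentiation, fell by 0.53 ± 0.10 (adjusted p = 0.0155) on 1 probe set, at 6.63 to 7.26 against 6.21 to 6.58. The probe set of Sox4 with the highest mean had a difference of -0.48 ± 0.12 that did not pass (adjusted p = 0.0510), which is why it is counted outside the 5. Tubb3, the neuronal beta-tubulin, fell by 0.19 ± 0.05 (adjusted p = 0.0466). The groups did not overlap for Tubb2b, Marcksl1, Ptn, Nrep, Tubb3 or the called probe set of Sox4. Members without a call included Neurod1 at -0.16 (adjusted p = 0.32), Stmn1 at -0.13 (adjusted p = 0.17) and Gap43 at -0.31 (adjusted p = 0.099).

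Mature granule neuron genes gave 9 negative and 7 positive differences among 16 measured, with a median of -0.05 that became 0.00323 after median centring. Pdyn, the precursor of dynorphin opioid peptides in mossy fibres, was the called member (6.25%, against 0.206% of all genes called higher). It spanned 10.01 to 10.44 (median 10.31) in young and 10.34 to 10.84 (median 10.65) in unimpaired rats and rose by 0.37 ± 0.08 (limma adjusted p = 0.0381). A second Pdyn probe set was also called, with a rise of 0.55 ± 0.13 (adjusted p = 0.0463). Of the 14 fits that left out 1 array, the first Pdyn probe set was called in 5. Penk, the enkephalin precursor, had a difference of 0.56 ± 0.19 that did not pass (adjusted p = 0.146), and Calb1, the granule cell calcium buffer, one of -0.22 ± 0.07 (adjusted p = 0.134). The CA field list had 12 negative differences of 14, a median of -0.17 and no call, and the part of tissue from those fields in the neuronal results was not tested.

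**Figure D3:**
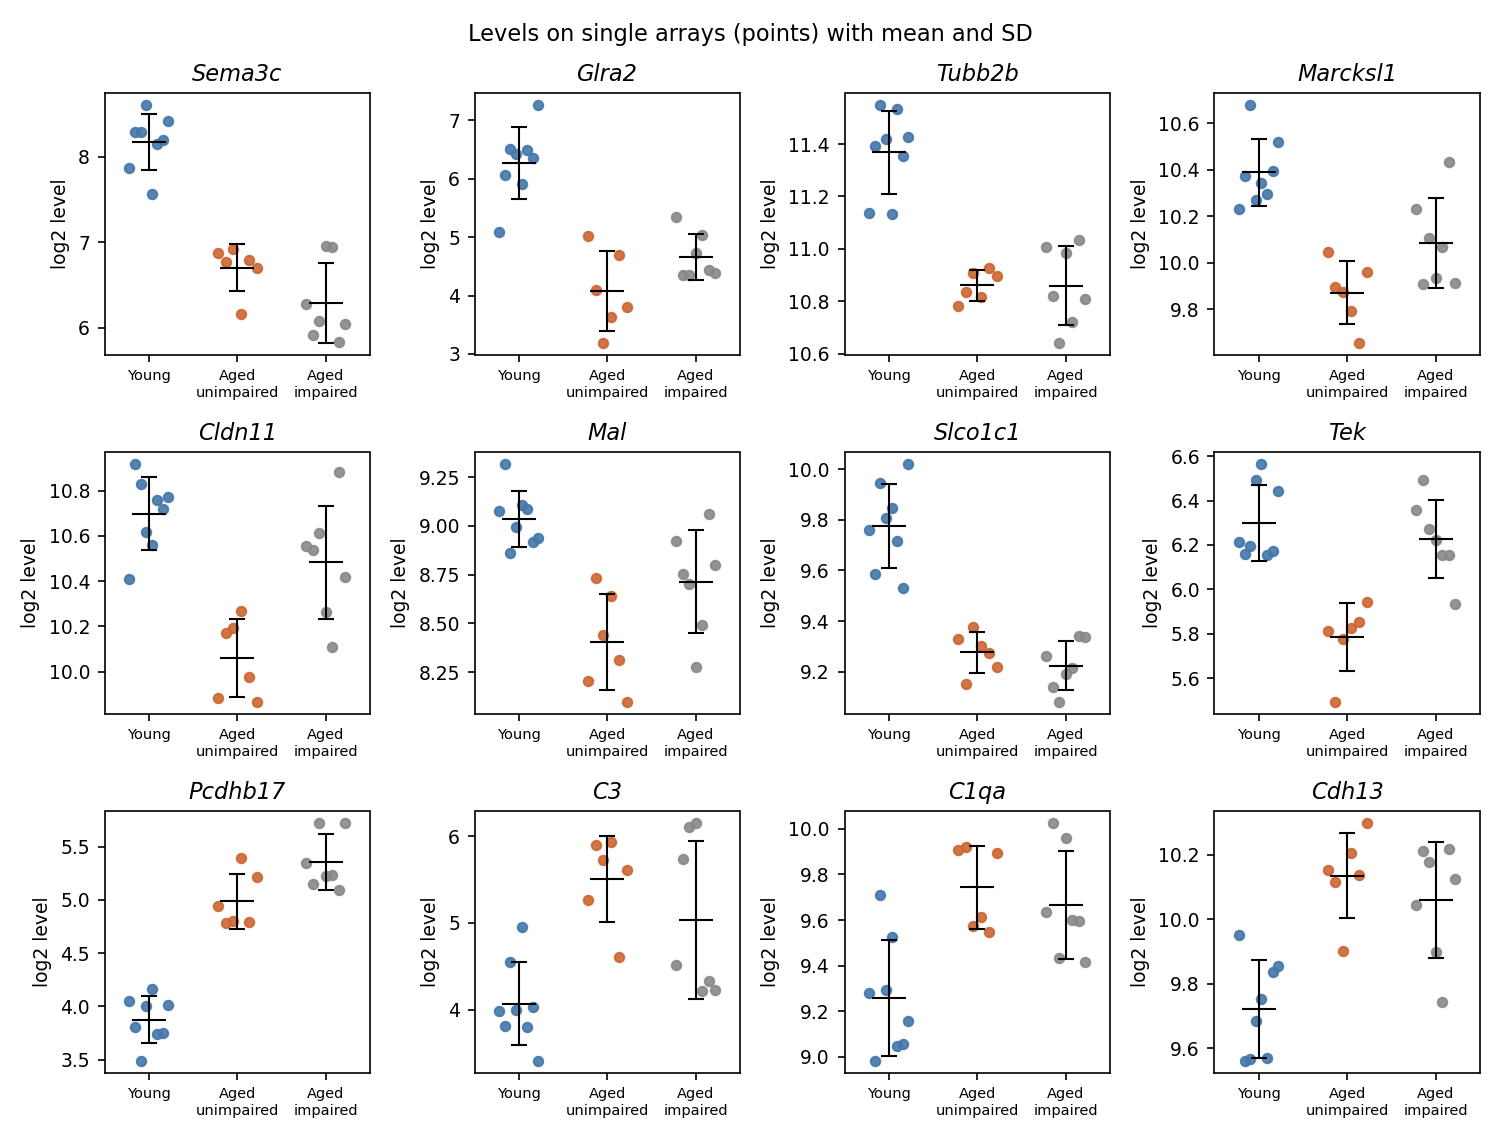
Log2 level on each array (points) with group mean and SD for 12 called genes. Young and unimpaired arrays do not overlap in the 8 lower genes of the upper rows or in Pcdhb17, while those of C3, C1qa and Cdh13 overlap at 1 or more arrays.

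Part of the oligodendrocyte lineage genes were lower. Among 9 measured precursor genes 8 were negative and 2 were called lower (22.2%, against 1.09% of all genes). The list median was -0.33, and -0.28 after centring. Vcan, a proteoglycan of precursor cells, spanned 4.81 to 5.80 in young and 4.37 to 5.13 in unimpaired rats and fell by 0.60 ± 0.13 (limma adjusted p = 0.0278). Pdgfra, the growth factor receptor that defines these precursors, fell by 0.34 ± 0.07 (adjusted p = 0.0344), from 8.77 to 9.12 down to 8.40 to 8.75 without overlap. Neither call remained after median centring, where Vcan was at -0.55 (adjusted p = 0.0520) and Pdgfra at -0.28 (adjusted p = 0.0818). After quantile normalization Vcan was called, at -0.58 (adjusted p = 0.0392). Vcan was called in 9 and Pdgfra in 8 of the 14 fits that left out 1 array. Sox10, the lineage transcription factor, had -0.40 ± 0.10 (adjusted p = 0.0620).

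Of 28 measured myelin genes 21 were negative and 4 were called lower (14.3%, against 1.09% of all genes), with a median of -0.13. Cldn11, the tight junction protein of the myelin sheath, spanned 10.41 to 10.92 (median 10.74) in young and 9.87 to 10.27 (median 10.07) in unimpaired rats. It fell by 0.64 ± 0.10, a level 1.56 times lower (limma adjusted p = 0.00622), without overlap, and a second Cldn11 probe set fell by 0.86 ± 0.19 (adjusted p = 0.0340). Mal, a proteolipid of myelin vesicles, fell by 0.63 ± 0.11 (adjusted p = 0.0121), from 8.86 to 9.32 down to 8.10 to 8.73.

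Tspan2, a tetraspanin of oligodendrocytes, fell by 0.45 ± 0.08 (limma adjusted p = 0.0141), with 6 unimpaired arrays at 7.74 to 7.95 below 8 young arrays at 8.11 to 8.60. Ugt8, which makes the myelin lipid galactosylceramide, fell by 0.91 ± 0.21 (adjusted p = 0.0355), with overlapping ranges of 5.70 to 6.75 and 4.47 to 5.76, and lost the call after centring, where the difference was -0.86 (adjusted p = 0.0646). Ugt8 was called in 5 of the 14 fits that left out 1 array. The major structural genes were not called: Mbp differed by -0.03 ± 0.07 (adjusted p = 0.849) and Mobp by -0.04 ± 0.09 (adjusted p = 0.873). Hapln2 at 0.40 and Qdpr at 0.30 had positive differences without a call, so the list did not move as a block.

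Part of the vessel genes were lower as well. Of 27 measured endothelial genes 22 were negative and 6 were called lower (22.2%, against 1.09% of all genes), with a median of -0.16. After centring 19 were negative, the median was -0.11 and 4 were called. Slco1c1, which carries thyroxine across the blood-brain barrier, spanned 9.53 to 10.02 (median 9.78) in young and 9.15 to 9.38 (median 9.29) in unimpaired rats. It fell by 0.50 ± 0.07 (limma adjusted p = 0.000691) and the groups did not overlap. Tfrc, the transferrin receptor that takes up iron, fell by 0.56 ± 0.07 (adjusted p = 0.000691), from 10.46 to 10.93 down to 9.98 to 10.43. Young replicate 5 was the lowest young array for Tfrc, at 10.46 against 10.71 for the next, and still lay above every unimpaired array.

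Tek, the angiopoietin receptor of endothelium, fell by 0.51 ± 0.09 (limma adjusted p = 0.0102), with unimpaired arrays at 5.49 to 5.94 and young arrays at 6.15 to 6.56. Sox17, an arterial transcription factor, fell by 0.63 ± 0.11 (adjusted p = 0.0124), from 5.76 to 6.52 down to 5.27 to 5.70. The remaining calls were Slc7a1, an arginine and lysine transporter, at -0.34 ± 0.08 (adjusted p = 0.0344) and Slco1a4, an organic anion transporter of the barrier, at -0.40 ± 0.10 (adjusted p = 0.0463), and both were lost after centring. General endothelial markers such as Pecam1 at -0.09 (adjusted p = 0.68), Cldn5 at -0.16 (adjusted p = 0.34) and Flt1 at -0.06 (adjusted p = 0.68) were not called. Nid1, the nidogen that links laminin to collagen IV, was the 1 called gene of 12 in the basement membrane list (8.33%, against 1.09% of all genes). It spanned 5.36 to 6.62 in young and 4.69 to 5.18 in unimpaired rats and fell by 0.82 ± 0.17 (adjusted p = 0.0214). Meningeal genes, which share matrix with vessels, had array means of 6.42 to 7.12 in young and 6.37 to 6.52 in unimpaired rats, and their part in these results was not tested.

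**Figure D4:**
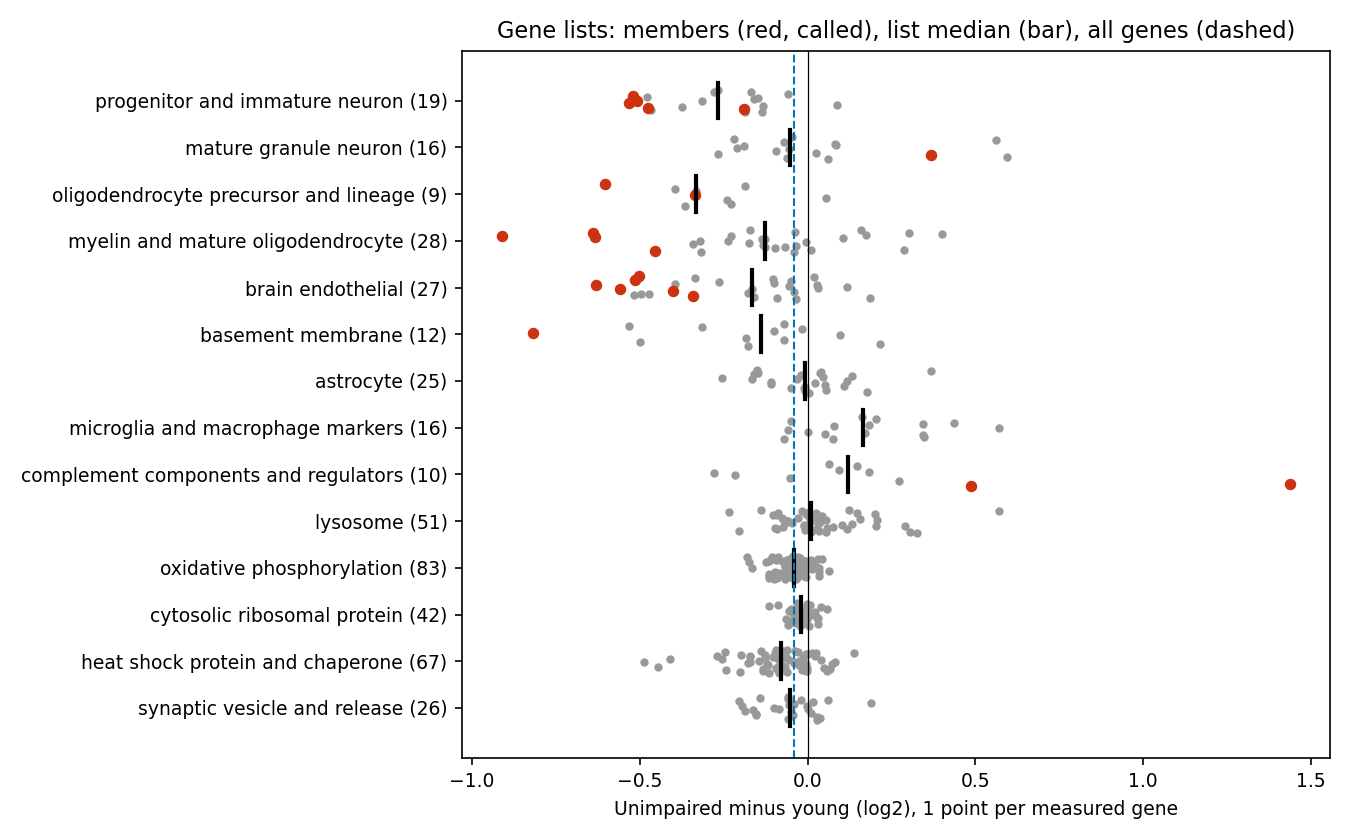
Log2 difference of unimpaired minus young for each measured gene of 14 lists (number in brackets), with list medians (bars) and the median of all genes, -0.04 (dashed). The progenitor, precursor and endothelial medians lie left of the dashed line and those of microglia and complement right of it, while the medians of oxidative phosphorylation, mature granule neuron, ribosomal and synaptic vesicle genes lie close to it and turn positive when arrays are centred.

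On the deposited scale, the genes that rose formed a smaller set than those that fell. After median centring 62 probe sets were called higher and 53 lower. Pcdhb17, a clustered protocadherin of neuronal surfaces, spanned 3.49 to 4.17 (median 3.90) in young and 4.79 to 5.40 (median 4.87) in unimpaired rats. It rose by 1.11 ± 0.13 as measured (limma adjusted p = 0.000261). Pcdhb17 was above the filter level of 4 on 3 of 8 young arrays and on every aged array, so it was tested through the groups where it is high. With values below 4 set to 4 it was at least 1.94-fold higher. Clustered protocadherins are also similar in sequence, so signal from relatives cannot be told apart here. Nat8f3, an N-acetyltransferase relative, rose by 1.14 ± 0.23 (adjusted p = 0.0200), from 4.35 to 5.57 in young to 5.36 to 6.81 in unimpaired rats. Its lowest unimpaired array, replicate 1, lay inside the young range.

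C3, the complement component on which all activation routes converge, spanned 3.41 to 4.95 (median 3.99) in young and 4.61 to 5.93 (median 5.67) in unimpaired rats. It rose by 1.44 ± 0.33 as measured (limma adjusted p = 0.0381), and 5 of 6 unimpaired arrays lay above the highest young array. C3 too was above the filter level of 4 on 3 of 8 young arrays and on every aged array, and with values below 4 set to 4 it was at least 2.49-fold higher. C1qa, a chain of the complement initiator C1q, rose by 0.49 ± 0.12 (adjusted p = 0.0463), from 8.98 to 9.71 in young to 9.55 to 9.92. The other chains were not called, with C1qb at 0.18 (adjusted p = 0.66) and C1qc at 0.27 (adjusted p = 0.353). In the complement list 10 genes were measured, of which 7 had a positive difference and 2 passed as higher, C1qa and C3. Since C3 was tested through the aged groups, where it is high, the share called was not compared with that of all genes. Of the 14 fits that left out 1 array, C3 was called in 4 and C1qa in 3.

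Microglial markers had 13 positive differences of 16 and a median of 0.17, or 0.22 after centring, with no call. The highest was Ctsz, a lysosomal protease, at 0.57 ± 0.16 (limma adjusted p = 0.0751), followed by Gpnmb at 0.44 (adjusted p = 0.24). Homeostatic markers were near 0, with P2ry12 at -0.05 and Tmem119 at -0.06. Among astrocyte genes 13 of 25 were negative, with a median of -0.01 that was 0.05 after centring. Gfap, the astrocyte filament, had 0.37 ± 0.10 with no overlap between groups. It did not pass as deposited (adjusted p = 0.0641) and passed after median centring (adjusted p = 0.0469).

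Further genes that rose had varied roles. Aadat, an aminotransferase that makes kynurenic acid, rose by 0.72 ± 0.15 (limma adjusted p = 0.0269), and the lectin receptor Cd302 by 0.65 ± 0.13 (adjusted p = 0.0203). Bmp6, a bone morphogenetic protein, rose by 0.52 ± 0.12 (adjusted p = 0.0421), with levels of 6.93 to 7.59 in young and 7.56 to 7.88 in unimpaired rats. All 6 unimpaired arrays exceeded the young mean for each of these 3 genes, with overlap at the edges. Of the 14 fits that left out 1 array, Bmp6 was called in 2. Cdh13, a cadherin without a cytoplasmic tail, rose on 3 probe sets, by 0.41 ± 0.08 on the named one (adjusted p = 0.0200) and by 0.41 and 0.55 on the others. The named probe set had levels of 9.56 to 9.95 in young and 9.90 to 10.30 in unimpaired rats, which overlapped at 1 array.

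Metabolic and signalling enzymes among the risers were Pdk1, the kinase that restrains pyruvate entry into the citric acid cycle, at 0.39 ± 0.08 (limma adjusted p = 0.0269) on 1 probe set, and Gpld1, a phospholipase that releases anchored surface proteins, at 0.37 ± 0.08 (adjusted p = 0.0320). A second Pdk1 probe set of similar level was at -0.13 ± 0.07 (adjusted p = 0.372). Pacsin3, an endocytic adaptor, rose by 0.36 ± 0.07 (adjusted p = 0.0204), with 6 unimpaired arrays at 6.50 to 6.88 above 8 young arrays at 6.27 to 6.49. Gstp1, a glutathione transferase, rose by 0.26 ± 0.05 (adjusted p = 0.0179), from at most 10.27 in young to 10.29 to 10.49 in unimpaired rats, without overlap. Gstp1 was the 1 call of 30 antioxidant genes (3.33%, against 0.206% of all genes called higher). Mgst1 had 0.75 ± 0.21 without passing (adjusted p = 0.0833).

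Nuclear regulators went both ways. Kmt2a, a histone H3 methyltransferase, rose by 0.28 ± 0.06 (limma adjusted p = 0.0381), and the zinc finger factor Plag1 by 0.40 ± 0.09 (adjusted p = 0.0435). Leaving out 1 array kept the call in 6 of 14 fits for Kmt2a, and in 4 of 14 each for Plag1 and Smarcc2. Smarcc2, a core subunit of the BAF chromatin remodelling complex, rose by 0.49 ± 0.11 (adjusted p = 0.0421) on 1 probe set, with unimpaired replicate 6 inside the young range at 7.20. The other 3 Smarcc2 probe sets were at -0.05, 0.08 and 0.05 without a call, the first 2 of them at higher mean levels (11.03 and 10.07). Smarce1, another subunit of that complex, fell by 0.24 ± 0.04 (adjusted p = 0.0127), from 9.98 to 10.15 down to 9.70 to 9.94 without overlap. Over 79 chromatin genes 61 were negative, and 40 after centring.

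Large families of housekeeping genes were shifted in the direction of the array medians with hardly any call. Oxidative phosphorylation genes were negative in 69 of 83 with a median of -0.04, and in 33 of 83 with a median of 0.01 after centring. Cytosolic ribosomal protein genes were negative in 30 of 42, and in 5 of 42 after centring, where the median went from -0.02 to 0.04. Medians of the mitochondrial ribosome, proteasome, splicing, glycolysis and synaptic vesicle lists likewise changed sign with centring. Centring raised every list by the same amount, so a negative median smaller than that amount turned positive by construction. Psmc6, a proteasome ATPase, was the 1 called gene of these families, at -0.21 ± 0.05 (limma adjusted p = 0.0355), and was lost after centring (adjusted p = 0.132). It made up 2.94% of the proteasome list, against 1.09% of all genes called lower, and was called in 5 of the 14 fits that left out 1 array. Chaperones kept a negative median, -0.08 as deposited and -0.02 centred, with 56 of 67 and 43 of 67 negative and none called. At an unadjusted limma p under 0.05, 12 of the 67 were lower as deposited, against 2094 of all 15177 tested probe sets.

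Median centring took the difference in array medians, -0.0548, out of every probe set alike. It thus raised every difference equally, so the direction of the calls it removed or added was largely set in advance. A set of 82 probe sets passed as deposited, after median centring and after quantile normalization, 29 higher and 53 lower, with a median size of 0.45. Another 81 passed as deposited alone, and all were lower, with a median size of 0.26. A further 25 passed under both other scalings but not as deposited, and all were higher. They included Gfap, the lysosomal sterol carrier Npc2 (0.31 as deposited, limma adjusted p = 0.0630, and 0.36 centred, adjusted p = 0.0332), the glucocorticoid target Fkbp5 (0.30, adjusted p = 0.0816, and 0.35 centred, adjusted p = 0.0427) and Camkk1, a calmodulin-dependent kinase kinase (0.24, adjusted p = 0.0617, and 0.29 centred, adjusted p = 0.0162).

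**Figure D5:**
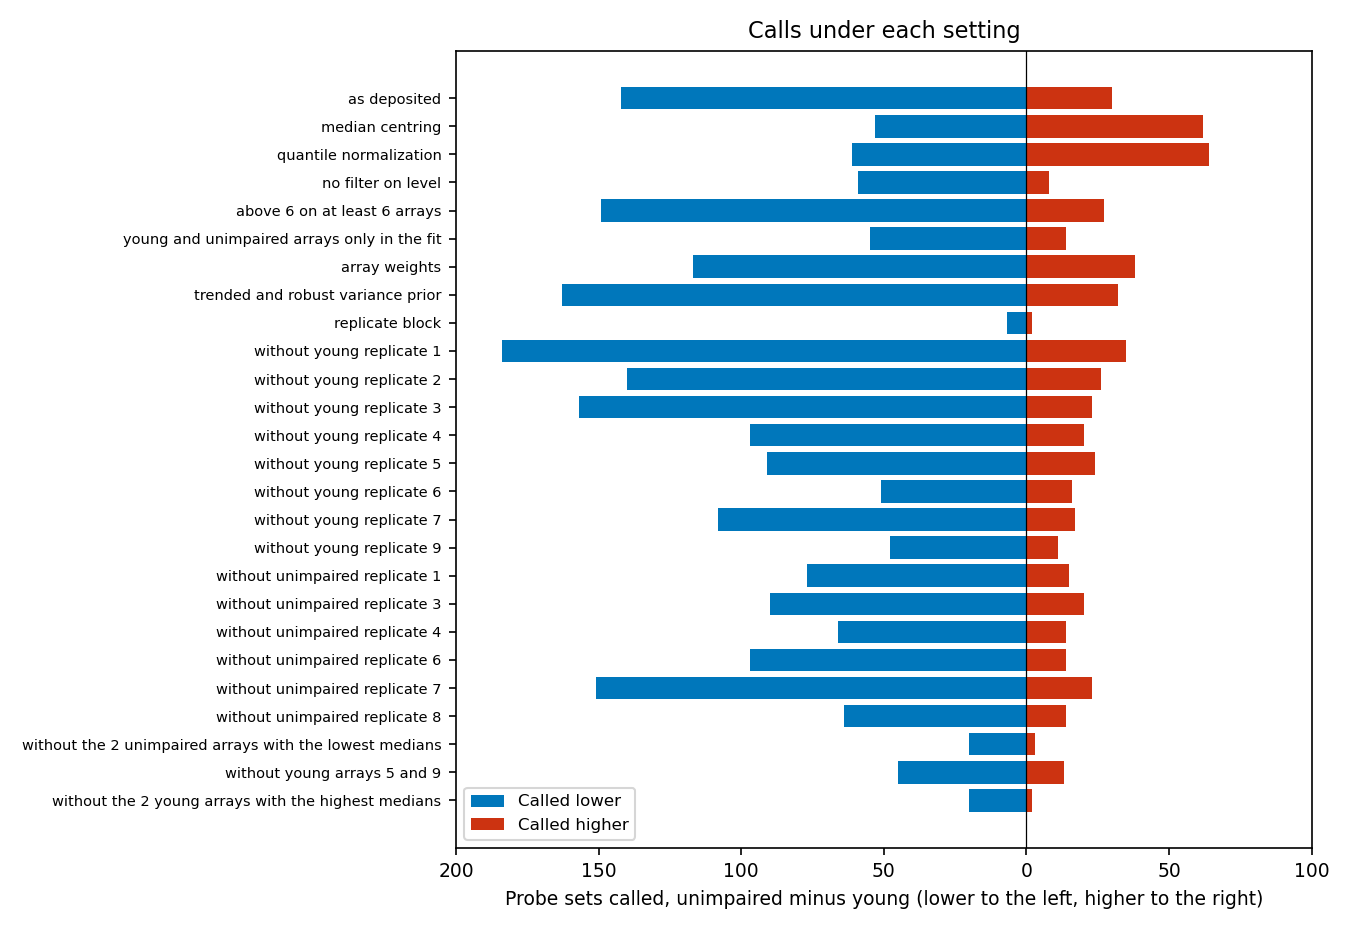
Number of probe sets called lower (left) and higher (right) in unimpaired minus young under each processing setting and each left-out array. The deposited values give 142 lower and 30 higher, median centring 53 and 62, and the smallest counts come from the replicate block (7 and 2) and from leaving out the 2 arrays with the lowest or highest medians.

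Sema3c, Tfrc and Slco1c1 were called in all 25 alternative fits, and Pcdhb17 in each fit that tested it. Of the 42 called genes named by rule, 20 were called in each of the 14 fits that left out 1 array, 35 after median centring and 36 after quantile normalization. No called gene of the 42 changed sign in any of these fits. The 42 were chosen by their calls on the same arrays, so a change of sign was unlikely from the start. Slc31a1, Aco1, Khdrbs3, Dbi and Ap1s2 were the genes closest to passing, with limma adjusted p-values of 0.0504 to 0.0510 and differences of -0.37 to -0.22.

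The impaired rats, set against the same young arrays, had 78 called probe sets (0.514%), 47 higher and 31 lower. Both comparisons share the young arrays, so their values are given side by side. Sema3c fell by 1.47 in unimpaired and 1.88 in impaired rats, Tubb2b by 0.51 in both, Slco1c1 by 0.50 and 0.55, and Tfrc by 0.56 and 0.46. Tek differed from young by -0.51 in unimpaired and -0.07 in impaired rats, Sox17 by -0.63 and -0.11, Cldn11 by -0.64 and -0.22, and Pdgfra by -0.34 and -0.03. When the aged groups were tested against each other, 0 of 15177 probe sets passed in limma (0.0%), with a smallest adjusted p of 0.129. At an unadjusted p under 0.05 there were 2199, of which 1949 were higher in impaired rats. These counts are on the deposited scale, where impaired arrays lay above unimpaired arrays by 0.0606 in the median. The number under 0.05 was 1588 after median centring and 1563 after quantile normalization. Tek had the difference 0.44 (unadjusted p = 7.84e-05, adjusted p = 0.129), so a difference between the aged groups was not shown for any of these genes. Of 25 fits that gave this contrast, the fit as deposited included, 1 made calls: without unimpaired replicate 7, Ift74, Nap1l1, Pir and 1 unnamed probe set passed, all higher in impaired rats.

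Promoter sequence was compared as a description. In the 250 bases before the RefSeq start (assembly GRCr8), the 86 of 104 genes called lower that had an entry held a median of 20 CG dinucleotides, and the 7333 of 8737 tested genes with an entry a median of 17. Of the 20 genes called higher 13 had an entry (65.0%), too few for a comparison. The promoters of 1 riser and 1 faller are shown 5′ to 3′ with each CG in capitals; they were chosen after their values were seen, as a CG-poor and a CG-rich example. C3 lies on the minus strand at chr9:2201340-2201589 and holds 3, Tfrc on the minus strand at chr11:81690319-81690568 and holds 26.
C3: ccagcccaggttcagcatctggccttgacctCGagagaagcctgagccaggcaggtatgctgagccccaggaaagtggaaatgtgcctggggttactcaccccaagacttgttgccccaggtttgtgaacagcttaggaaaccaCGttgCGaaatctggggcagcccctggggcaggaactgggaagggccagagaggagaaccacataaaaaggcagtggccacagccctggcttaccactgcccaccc
Tfrc: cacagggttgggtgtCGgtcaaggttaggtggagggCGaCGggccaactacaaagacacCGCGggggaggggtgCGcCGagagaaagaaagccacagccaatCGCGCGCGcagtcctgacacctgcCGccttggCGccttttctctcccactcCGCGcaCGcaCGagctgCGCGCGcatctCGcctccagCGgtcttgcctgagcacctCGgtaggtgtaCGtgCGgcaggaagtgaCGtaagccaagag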

How the data were processed

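The Affymetrix rat arrays carry 31099 probe sets, each given by the authors as a log2 value. The submitters' processing notes name GCRMA and no version. Of 24 labelled arrays, 3 were omitted by the submitters and have empty columns. Probe sets other than the 57 controls were tested when above a log2 level of 4 on at least 6 arrays. Of the 15177 tested, 11476 have 1 symbol in the platform annotation, 281 several and 3420 none.

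The 3 groups were fitted together with limma 3.58.1 in R 4.3.3 (lmFit, eBayes, 18 residual degrees of freedom), with Benjamini-Hochberg adjustment over all tested probe sets. Errors are moderated standard errors unless SD is stated. The fit was tested on simulated data. Array measures of the 8 young and 6 unimpaired arrays were compared by exact permutation of 3003 arrangements. Those of the aged groups were compared over all arrangements of the 7 impaired and 6 unimpaired arrays. Genes were named by rule: the 15 largest called differences each way, the 4 smallest p in each list with a call, and the 5 smallest p without a call. Other genes named were chosen after their values were seen. The members and gene lists were chosen with earlier results of these data known. Rps6k kinases were left out of the ribosomal list. Alternatives were median centring, quantile normalization, other filters, array weights, a trended and robust prior, a fit of 2 groups, a replicate block and left-out arrays; 3 that leave out 2 arrays were added after seeing the data. P-values measure the spread between arrays labelled as biological replicates, and the number of arrays limits the precision. No hybridization batch was modelled, since the labels name none.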

Additional observations from a re-analysis of the deposited data

Results flagged for a closer look

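Single arrays stood far from the rest of their group in 15 of 186 group values examined (8.06%), by Dixon's gap test, where chance gives about 1 in 20. Among called genes, unimpaired replicate 6 was low for Sema3c at 6.16 (the others 6.69 to 6.92) and for Smarcc2 at 7.20, where the others of its group lay at 7.74 to 8.02. Unimpaired replicate 3 was low for Tek at 5.49 and for Pdk1 at 7.56. Young replicate 5 was low for Tfrc at 10.46, young replicate 4 for Gpld1 at 7.65 and young replicate 9 for Nat8f3 at 4.35.

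Among genes without a call, unimpaired replicate 6 was low for Col4a5 at 4.18 and for Dbi at 11.35, and unimpaired replicate 4 for Aco1 at 8.37. Unimpaired replicate 8 was low for Kyat3 at 6.01 and high for Kyat1 at 7.05. Young replicate 2 was low for Kyat3 at 6.31 and young replicate 5 for Dbi at 11.45. Young replicate 5 was high for Acer2 at 6.39, while the other 7 young arrays lay between 3.35 and 4.08.

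The aged groups differed in the overall level of tested probe sets. Impaired arrays were higher than unimpaired arrays by 0.0606 in the median, 0.0555 in the mean and 0.0463 in the lower quartile (exact permutation adjusted p = 0.00932 for each), and by 0.0629 in the upper quartile (adjusted p = 0.0152). This test was added after the values were seen.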

How the results depend on the processing

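The 172 calls (30 higher, 142 lower) were within 1.5 times of that number after median centring (115; 62 higher, 53 lower), quantile normalization (125; 64 and 61), the stricter filter (176), array weights (155) and the trended and robust prior (195). They fell to 67 without a filter (8 and 59) and to 69 with young and unimpaired arrays alone (14 and 55). Leaving out 1 array gave 59 to 219 calls (11 to 35 higher, 48 to 184 lower). Counts moved by over 1.5 times without young replicate 6 (67) or 9 (59) and without unimpaired replicate 1 (92), 3 (110), 4 (80), 6 (111) or 8 (78). In alternatives added after seeing the data, 23 were called without the 2 unimpaired arrays of lowest median (3 and 20), 22 without the 2 young arrays of highest median (2 and 20) and 58 without young arrays 5 and 9 (13 and 45). The cause was not tested.

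The groups share replicate numbers in the titles, but same-numbered arrays did not deviate together (r of -0.118 to 0.0850 over 5 numbers, 0 over 0.1), so the numbers were not taken as pairs. With the number as a replicate block, 9 probe sets were called (2 higher, 7 lower).

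The difference in array median ran from -0.0626 to -0.0439 over left-out arrays, with exact permutation adjusted p of 0.0497 to 0.176; it passed without young replicate 3, at -0.0626. Impaired minus unimpaired gave 0 calls except 4 without unimpaired replicate 7, and could not be fitted with young and unimpaired arrays alone. Reversals touched genes without a call: Got2 at 0.0131 (centring) and 0.00161 (quantile), Kyat3 at 0.0114 (array weights), 0.0351 (without unimpaired replicate 8) and 0.0430 (without the 2 lowest unimpaired arrays), and Kyat1 at -0.00888 and -0.0087 in the last 2 of these. Over left-out arrays Kyat3 ran from -0.0973 to 0.0351 and Kyat1 from -0.00888 to 0.0306. Median centring moved every list median by the same amount. This amount exceeded the spread between unimpaired arrays in 14 of 45 lists, which are the lists with the smallest spread. With the mean of all probe sets of a gene, 1 list median moved by more than that spread.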
